A study of Mus musculus with 6 samples.

Results

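The voltage-gated sodium and calcium channel families comprised 38 genes of the 34395 gene entries, chosen by symbol: the Scn genes for alpha and beta subunits and the Cacn genes for alpha1, alpha2delta, beta and gamma subunits. Cacna1d and Cacnb2 were left out by that choice, so family totals below are without them. The RNA came from the cochlear base of C57BL/6J mice, an inbred laboratory strain that loses hearing early in life. After removal of ribosomal RNA, 3 libraries labelled old and 3 labelled young were sequenced. Neither ages nor sexes are in the labels, and no treatment or transgene is named for either group. Since the labels do not tie libraries to animals, the p-values below cover the spread among these 6 libraries alone.

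A sodium channel is built around a single large alpha subunit that forms the pore and opens on depolarisation, and small beta subunits set its speed and its place in the membrane. A calcium channel has an alpha1 pore subunit of the L type, the P/Q, N and R types, or the low-threshold T type, and all but the T type are joined by a beta subunit in the cytoplasm and an alpha2delta subunit outside the cell. In the cochlea sodium channels carry the spikes of spiral ganglion neurons, and calcium channels drive transmitter release from hair cells and from nerve endings. Most genes called gamma encode partners of AMPA-type glutamate receptors (TARPs) and not calcium channel subunits.

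Gene counts added up to between 26245416 and 26839068 in old libraries and between 37084017 and 39433584 in young libraries. Markers of the labelled tissue were present: 10 of 10 hair cell markers, 5 of 5 of strial marginal cells and 5 of 5 of fibrocytes were tested. Of these, 10, 5 and 4 fell in old libraries, against 27.3% of all genes tested. With library totals alone as the scaling, 9, 4 and 4 fell, against 14.5% of all genes. Old libraries also differed from young in sex-linked RNA: Xist, the RNA of the inactive X chromosome, had 0 to 0.302 CPM (counts scaled to library size) in old and 384.1 to 515.0 CPM in young libraries, while the Y-linked Ddx3y had 30.0 to 37.1 CPM in old and 0 in young libraries. Age and sex-linked profile cannot be told apart in any comparison below. In whole-tissue RNA, fewer cells of a type and less RNA per cell cannot be told apart either.

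The data mostly showed higher channel RNA in the old cochleae. Levels did not overlap between the groups for 17 of the 31 channel genes tested, against 62.3% of all genes (31.2% with old higher). Of 31 channel genes with enough counts to test, 15 rose, 2 fell and 14 did not pass the threshold, an adjusted p under 0.05 in edgeR's quasi-likelihood test with Benjamini-Hochberg adjustment over 20157 genes. Across all genes tested, 54.2% passed: 26.9% were higher and 27.3% lower in old libraries. The channel genes passed about as often, at 54.8%, but 48.4% were higher and 6.45% lower. Their median log2 fold change (old minus young) was 0.42, against 0.01 over all genes. Among those that passed, 88.2% were higher, against 49.7% of all genes that passed. With library totals alone in place of TMM (a scaling that assumes most genes do not change), the channel genes had 19 higher and 1 lower, where 55.5% of all genes passed, 41.0% higher and 14.5% lower. With TMM on protein-coding genes they had 17 higher and 1 lower, where 54.3% of all genes passed, 33.7% higher and 20.6% lower. On log2(FPKM + 1), limma called 16 higher and 0 lower (1 lower, Scn2b, at an unadjusted p under 0.05), where 52.1% of all genes passed, 38.4% higher and 13.7% lower. Library totals alone moved the median of all genes by 0.274 on the log2 scale, TMM on protein-coding genes by 0.133 and log2(FPKM + 1) by 0.258. Where no scaling is given, a log2 fold change below is the one with TMM. CPM are counts scaled to the TMM-adjusted library total, and FPKM are the deposited values scaled to transcript length and depth.

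**Figure D1:**
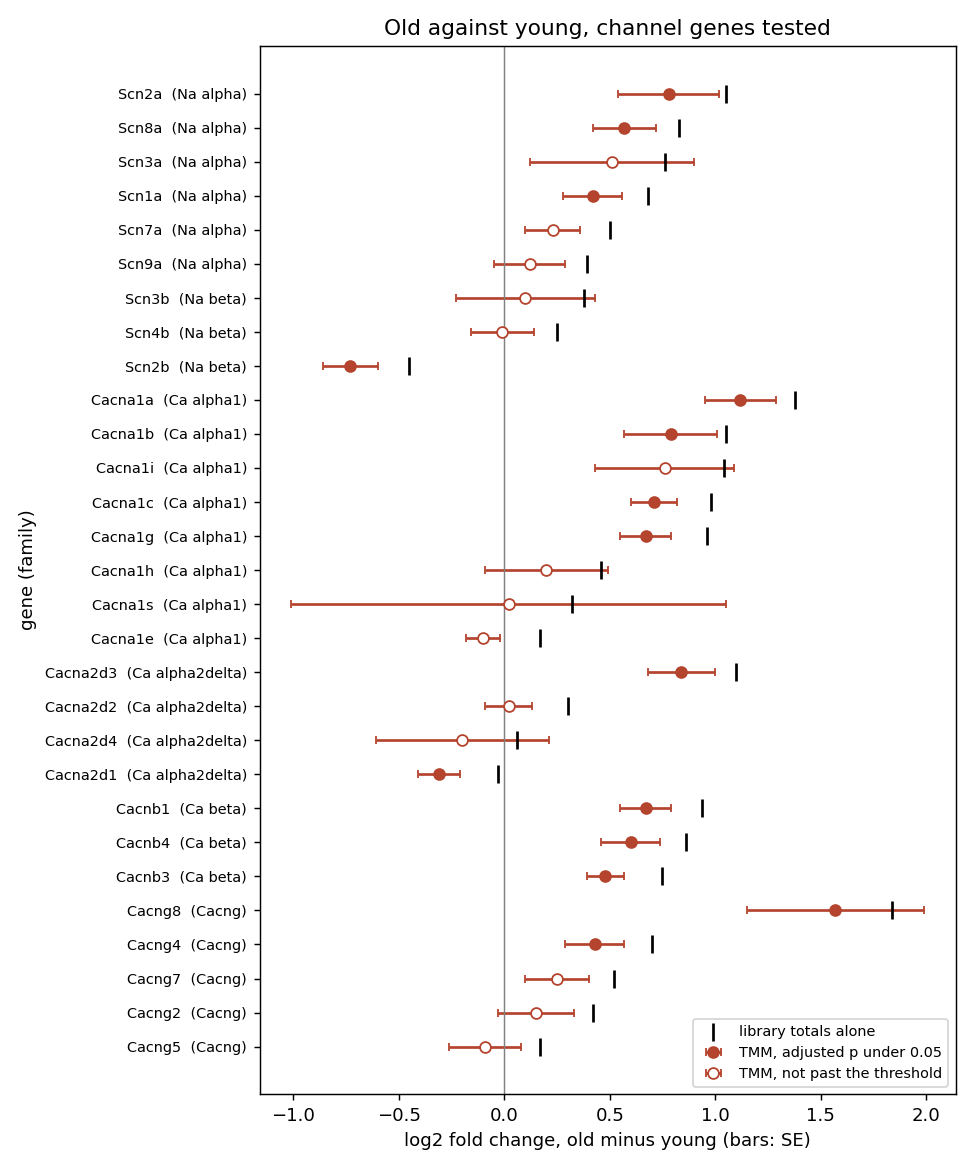
Log2 fold change (old minus young) of tested channel genes, by family; bars are standard errors, filled points passed an adjusted p under 0.05, and black ticks are the values with library totals alone. Most filled points lie right of 0, from 0.42 for Scn1a to 1.57 for Cacng8, and Scn2b (-0.73) and Cacna2d1 (-0.31) lie left of it.

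Neuron markers, listed for spiral ganglion neurons but not limited to them, moved with the channel genes. Of 12 such markers 11 rose and none fell, where 26.9% of all genes tested were higher and 27.3% lower. The median log2 fold change of these markers was 0.76, and none was at 0 in all libraries. Their summed level was 2744.0, 2995.4 and 3191.2 CPM in old 1, 2 and 3, against 1979.8, 1538.9 and 1348.1 CPM in young 1, 2 and 3, so the groups did not overlap and young 1 was the young library closest to the old ones. Young 1 was also the highest young library for 21 of the 31 channel genes (67.7%) and for 10 of the 12 neuron markers (83.3%), but for 39.0% of all genes tested. Schwann cell and myelin markers had 3 higher and 1 lower of 9, against 26.9% and 27.3% of all genes. The number higher was 4 without young 1, and the number lower was 4 without young 3, 3 with no filter and 0 on log2(FPKM + 1). The summed level of this list lay between 2733.9 and 2863.6 CPM in old and between 2222.9 and 3786.2 CPM in young libraries, with young 1 the highest of all. Smooth muscle and pericyte markers had 3 higher and none lower of 7 tested, again against 26.9% and 27.3% of all genes. Their sums were 334.8 to 372.3 CPM in old and 261.5 to 272.9 CPM in young libraries. Hair cell markers went the other way, with sums of 98.8 to 113.7 CPM in old and 166.5 to 257.2 CPM in young libraries. Macrophage, bone and red cell markers had 2 of 6, 3 of 4 and 3 of 3 lower and none higher, against 27.3% of all genes lower. The macrophage number was 1 with library totals alone or without old 1, and 0 on log2(FPKM + 1). The part of any of these marker lists in the channel results was not tested.

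**Figure D2:**
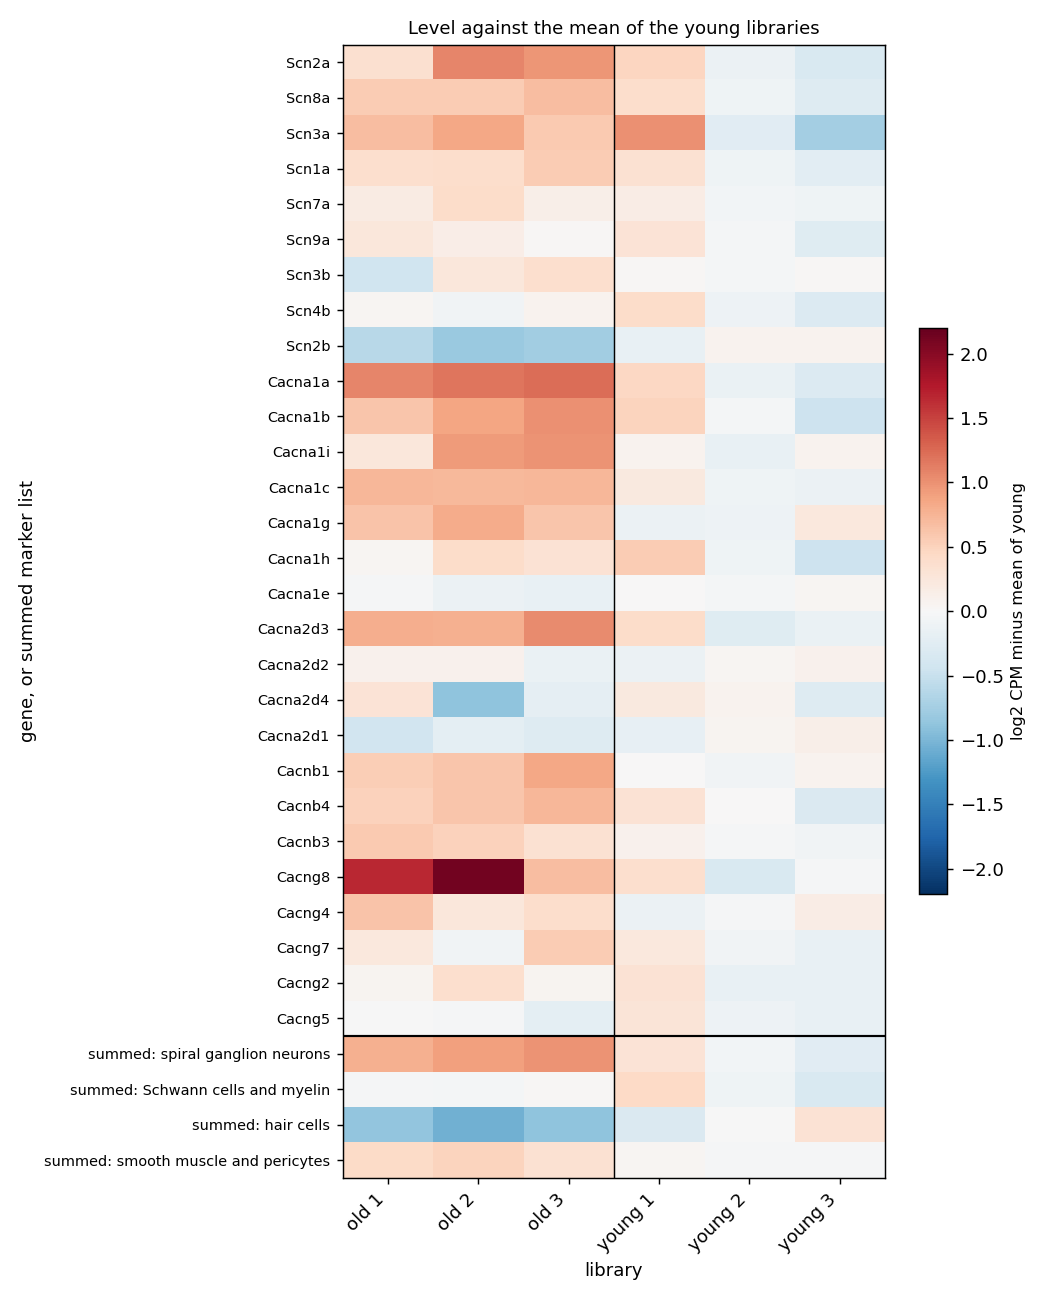
Level of channel genes with counts in every library, as log2 CPM minus the mean of the young libraries, with the summed levels of 4 marker lists below the line. Red is higher and blue lower than the young mean; the old columns are red for most channel genes and for the neuron marker sum, and young 1 is redder than young 2 and 3 in many rows.

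Among the sodium channel pore subunits, 4 of the 7 tested rose and none fell, where 26.9% of all genes were higher and 27.3% lower. None of these subunits fell at an unadjusted p under 0.05 in edgeR and DESeq2 either. Scn8a, the main pore subunit at nodes of Ranvier and at the axon initial segment of mature neurons, was the most abundant. Scn8a (gene 20273, chromosome 15, 100869863 to 101045938, GRCm38.p6) had 213, 212 and 231 CPM in old 1, 2 and 3, against 189, 136 and 118 CPM in young 1, 2 and 3. The groups did not overlap, and young 1 lay closest to the old libraries. Its log2 fold change was 0.57 ± 0.15 (SE; adjusted p = 0.00815, edgeR), and leaving out 1 library at a time gave 0.41 to 0.76, past the threshold each time.

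Scn1a, which encodes another neuronal pore subunit and is abundant in inhibitory interneurons of the brain, had 66.1, 66.7 and 75.8 CPM in old and 64.7, 47.9 and 43.6 CPM in young libraries. Old 1 exceeded young 1 by little, and the log2 fold change of 0.42 ± 0.14 (adjusted p = 0.0254, edgeR) did not pass without old 2, old 3, young 2 or young 3 (adjusted p = 0.0548, 0.0999, 0.0996 and 0.0958). Scn2a, known from unmyelinated axons and immature axon initial segments, had 8.14, 13.4 and 12.5 CPM in old and 8.88, 5.82 and 5.06 CPM in young libraries. Here the groups overlapped, because young 1 lay above old 1. Its log2 fold change of 0.78 ± 0.24 (adjusted p = 0.0186, edgeR) did not pass without old 2, old 3, young 2 or young 3 either (adjusted p = 0.0847, 0.0652, 0.0663 and 0.0612).

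Scn9a, a pore subunit of peripheral sensory neurons, had 8.34, 7.72 and 7.09 CPM in old and 8.66, 6.80 and 5.82 CPM in young libraries, and its log2 fold change of 0.12 ± 0.17 did not pass. Scn7a, which encodes a sodium-sensing relative that is not opened by voltage, had 12.9, 15.1 and 12.5 CPM in old and 12.8, 10.9 and 10.7 CPM in young libraries and did not pass (0.23 ± 0.13, adjusted p = 0.151, edgeR), but passed as higher with library totals alone (0.50, adjusted p = 0.0155) and with TMM on protein-coding genes (0.36, adjusted p = 0.0387). Scn3a, a pore subunit of the embryonic nervous system, had 2.47, 2.78 and 2.28 CPM in old and 3.08, 1.29 and 0.914 CPM in young libraries. Its value of 0.51 ± 0.39 did not pass (adjusted p = 0.295), but was 1.16 without young 1 (adjusted p = 0.0083, edgeR).

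The pain-fibre channels and the muscle channel were close to absent from these libraries. Scn10a had 0 counts in each old library and 1 in each young library, and Scn11a had 0 in each old library and 0, 2 and 1 in young 1, 2 and 3. Both encode pore subunits of pain-sensing neurons. Scn4a, the skeletal muscle subunit, had 5, 5 and 0 counts in old and 15, 7 and 11 in young libraries. These 3 genes were below the filter on low counts and were not tested. A count of 3 in a library stood for 0.112 to 0.114 CPM in old and for 0.0761 to 0.0809 CPM in young libraries, a limit that covers counting error only.

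**Figure D3:**
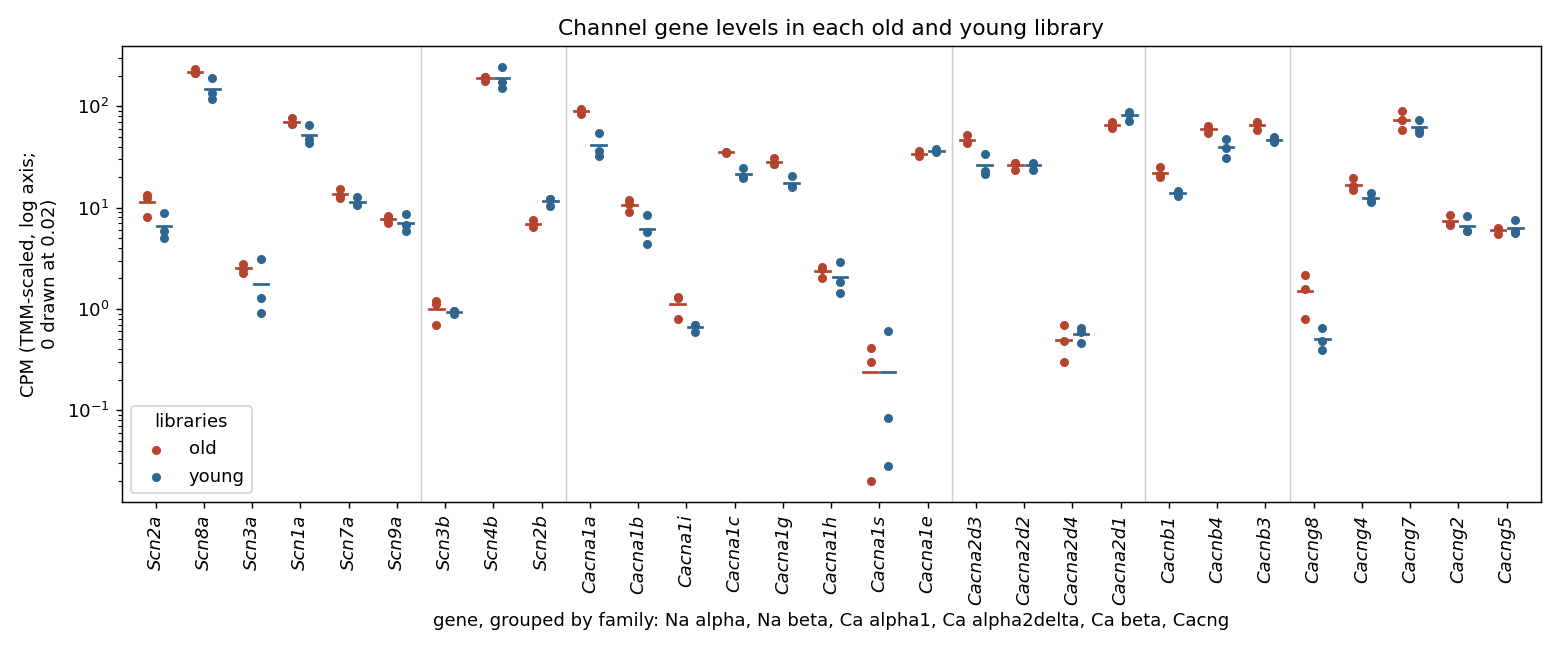
TMM-scaled CPM (log axis) of tested channel genes in each library, with old to the left of young; bars are group means. Scn8a and Scn4b lie near the top, and Cacna1a shows the widest gap between groups among genes above 10 CPM.

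Among the beta subunits of sodium channels, Scn2b fell and Scn4b did not pass the threshold. Scn2b, whose product is joined to the alpha subunit by a disulphide bond, was the only sodium channel gene that fell. It had 7.55, 6.48 and 6.71 CPM in old and 10.3, 12.1 and 12.1 CPM in young libraries, and the groups did not overlap. Its log2 fold change was -0.73 ± 0.13 (adjusted p = 0.00129, edgeR), between -0.84 and -0.69 with 1 library left out. On log2(FPKM + 1) it was -0.24 and missed the threshold (adjusted p = 0.0769, limma). Scn2b shares 12195 bases with the noncoding Gm10684 on the opposite strand (mean 39.5 counts, log2 fold change 0.75, adjusted p = 0.0966), and its counts were partly not whole, so its value is uncertain to that extent. Scn4b, a disulphide-linked beta subunit tied to resurgent sodium current, had 193, 177 and 197 CPM in old and 246, 173 and 152 CPM in young libraries. Young 1 was the highest of the 6 and young 3 the lowest, and the log2 fold change was -0.01 ± 0.15 (adjusted p = 0.959, edgeR). Scn3b stood near 1 CPM in both groups and did not pass (0.10 ± 0.33).

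Scn2b and Scn4b are neighbours on chromosome 9 with 8.55 kb between them, both on the plus strand. Their start regions are shown because neighbouring genes of the same family gave different results; each window runs from 250 bases before to 50 bases after the RefSeq start in GRCm38.p6. The Scn2b window, chr9:45117626-45117925, was 38.3% G or C with 2 CpG sites, and the Scn4b window, chr9:45138374-45138673, was 66.3% G or C with 26 CpG sites. Capitals in Scn2b mark a match to the E box CAGGTG on the minus strand, and Scn4b held none of the motifs searched.
Scn2b: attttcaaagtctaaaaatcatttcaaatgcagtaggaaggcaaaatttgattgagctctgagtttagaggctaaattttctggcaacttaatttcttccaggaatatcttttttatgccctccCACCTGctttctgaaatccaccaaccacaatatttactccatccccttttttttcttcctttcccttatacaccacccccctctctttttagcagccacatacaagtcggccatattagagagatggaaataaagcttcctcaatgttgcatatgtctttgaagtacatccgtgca
Scn4b: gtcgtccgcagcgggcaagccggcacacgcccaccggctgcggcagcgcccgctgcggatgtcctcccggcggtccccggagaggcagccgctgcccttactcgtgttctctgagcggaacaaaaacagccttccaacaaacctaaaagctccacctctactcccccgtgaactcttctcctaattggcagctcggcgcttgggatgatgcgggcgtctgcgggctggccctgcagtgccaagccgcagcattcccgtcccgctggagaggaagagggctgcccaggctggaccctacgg

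Family make-up was also read per length, as shares of summed FPKM. Scn8a made up 49.9% ± 2.12 of the summed FPKM of the alpha genes in old and 46.6% ± 1.67 in young libraries (SD, n = 3 each), with overlap. Scn1a held 23.9% ± 1.39 of the summed FPKM in old and 21.5% ± 0.637 in young libraries, but 19.9% ± 0.742 of the summed counts in old and 21.3% ± 0.278 in young libraries, so the direction turned with the unit, without overlap in either. Scn9a held 9.93% ± 2.16 in old and 16.4% ± 2.84 in young libraries, without overlap, but only 2.22% and 2.90% of the summed counts. Scn4b held 24.4% ± 1.52 of the summed FPKM of the beta genes in old and 28.3% ± 3.39 in young libraries, with overlap. The summed FPKM of the alpha genes was 47.2, 50.3 and 49.5 in old and 39.3, 27.0 and 22.9 in young libraries, so that within the young group young 1 again stood apart.

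Of 8 calcium channel pore genes tested, 4 rose and none fell, where 26.9% of all genes were higher and 27.3% lower. None of these pore genes fell at an unadjusted p under 0.05 in edgeR and DESeq2. Cacna1a, the P/Q-type subunit that triggers transmitter release at many fast synapses, had the largest change above 10 CPM. Cacna1a (gene 12286, chromosome 8, 84338631 to 84640251) had 84.0, 90.4 and 94.4 CPM in old 1, 2 and 3, against 54.8, 36.3 and 32.4 CPM in young 1, 2 and 3. Every old library lay well above every young one, young 1 included. The log2 fold change was 1.12 ± 0.17 (adjusted p = 0.000376, edgeR), a 2.18-fold difference, and it lay between 0.95 and 1.36 with 1 library left out. Cacna1b, the N-type subunit of nerve endings, had 9.06, 10.9 and 12 CPM in old and 8.38, 5.79 and 4.36 CPM in young libraries. Its log2 fold change of 0.79 ± 0.22 (adjusted p = 0.0126, edgeR) missed the threshold without old 3 (0.69, adjusted p = 0.0509).

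Cacna1e, the R-type subunit, stayed out of this pattern. It had 36.0, 33.5 and 32.6 CPM in old and 36.6, 35.3 and 37.6 CPM in young libraries, close to level in all 6. The log2 fold change was -0.10 ± 0.08 (adjusted p = 0.328, edgeR) with TMM and 0.17 with library totals alone, and passed with neither. Among the pore genes chosen, without Cacna1d, Cacna1a made up 40.3% ± 1.34 of the summed FPKM in old and 32.1% ± 5.05 in young libraries. Cacna1e made up 11.3% ± 0.734 in old and 21.5% ± 3.02 in young libraries (SD, n = 3 each), and for both genes the groups did not overlap.

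**Figure D4:**
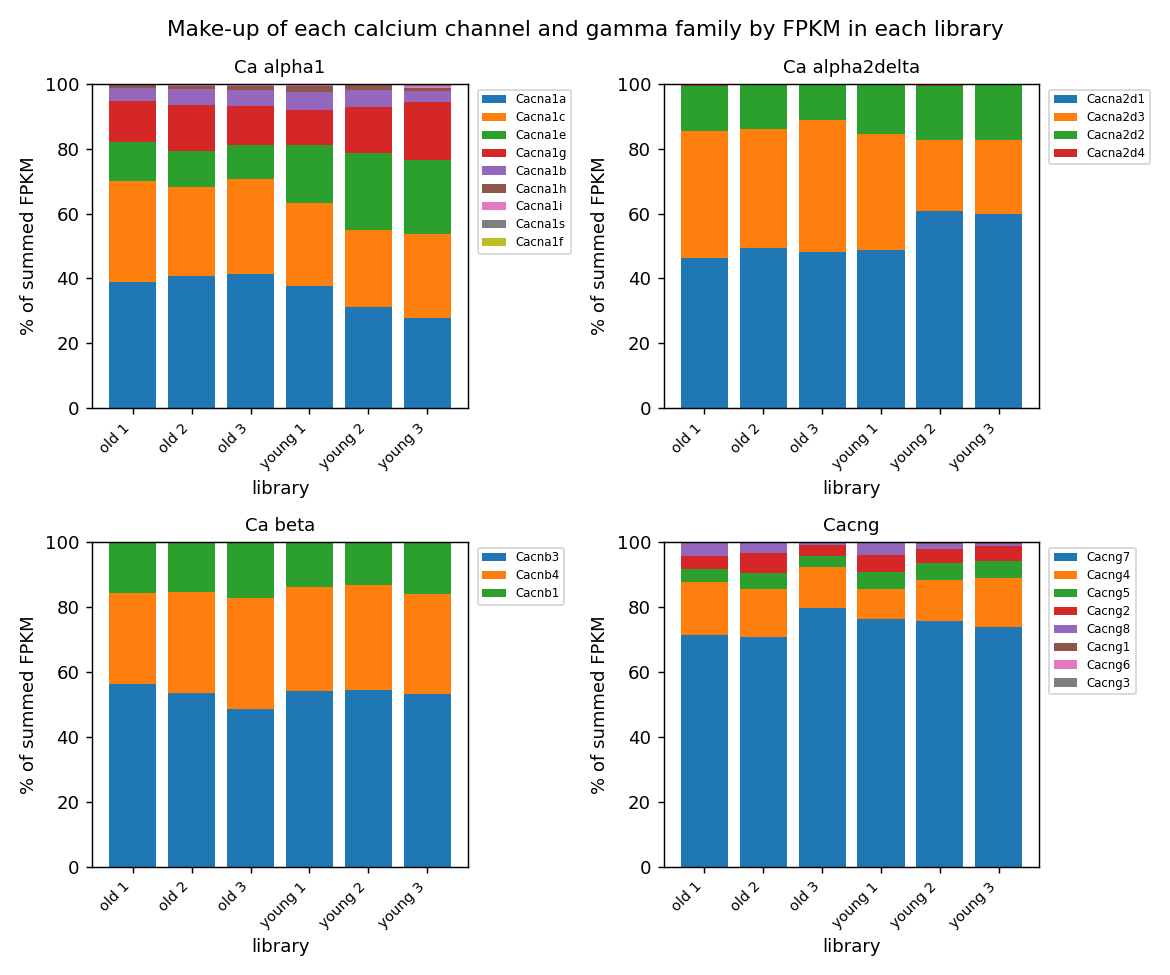
Percent of the summed FPKM of each calcium channel and gamma family held by each gene, in every library, with Cacna1d and Cacnb2 left out. Cacnb3 and Cacng7 lead their families in all 6 libraries, while the Cacna1e part is smaller in old than in young and the Cacna2d3 part is larger in old.

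The L-type subunit gene Cacna1c, active in heart, smooth muscle and neurons, had 35.2, 34.7 and 35.3 CPM in old and 24.7, 20.0 and 19.4 CPM in young libraries. The old values lay within 1 CPM of each other and above all young ones (log2 fold change 0.71 ± 0.11, adjusted p = 0.000405, edgeR). In the annotation Cacna1c shares 42143 bases with the long noncoding Gm50599, which had a mean of 1454.3 counts per library and rose as well (1.13, adjusted p = 4.29e-05, edgeR). How reads of the shared span were assigned is not given, so the value of Cacna1c is uncertain. Cacna1g, a low-threshold T-type subunit, had 27.1, 30.8 and 26.7 CPM in old and 16.1, 16.3 and 20.6 CPM in young libraries, with young 3 the highest of the young (0.67 ± 0.12, adjusted p = 0.00116, edgeR). The other T-type genes were low. Cacna1h had 2.03 to 2.62 CPM in old and 1.43 to 2.89 CPM in young libraries (0.20 ± 0.29). Cacna1i had 0.790, 1.27 and 1.31 CPM in old and 0.700, 0.590 and 0.700 CPM in young libraries. The Cacna1i groups did not overlap, and its log2 fold change of 0.76 ± 0.33 missed the threshold (adjusted p = 0.0775, edgeR), but passed with library totals alone (adjusted p = 0.0266).

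Cacna1s and Cacna1f, L-type pore genes known mainly from single tissues, were barely seen. Cacna1s, the skeletal muscle subunit, had 0, 9 and 12 counts in old and 3, 1 and 20 in young libraries and did not pass (0.02 ± 1.03). Cacna1f, the retinal subunit, had 1, 3 and 0 counts in old and 4, 1 and 1 in young libraries and was not tested. Skeletal muscle markers summed to 27.2 to 36.4 CPM in old and 41.3 to 70.2 CPM in young libraries, with none of the 16 at 0 in all libraries. Mybpc1 was the largest single part of each sum, with 18.7, 19.7 and 15.4 CPM in old and 29.4, 26.2 and 30.9 CPM in young libraries. Of 13 tested, 2 were lower, Acta1 (-2.78) and Mybpc1 (-0.68), where 27.3% of all genes were lower. The number lower was 4 without old 2, 4 without old 3 and 7 without young 1, each with more genes past the filter, and Acta1 did not pass on log2(FPKM + 1).

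Alpha2delta genes moved in opposite directions. Cacna2d3 (gene 12294, chromosome 14, 28904943 to 29722775) had 44.4, 43.8 and 52.4 CPM in old and 34.0, 21.3 and 23.2 CPM in young libraries, without overlap, and its log2 fold change was 0.84 ± 0.16 (adjusted p = 0.00171, edgeR). Cacna2d1 (gene 12293, chromosome 5, 15934264 to 16374511), which binds the drug gabapentin, had 60.8, 69.6 and 66.7 CPM in old and 71.3, 84.2 and 88.4 CPM in young libraries, also without overlap. It fell with TMM (-0.31 ± 0.10, adjusted p = 0.0226, edgeR), but the value was -0.03 with library totals alone (adjusted p = 0.818), and on log2(FPKM + 1) it was 0.39 and passed in the other direction (adjusted p = 0.00718, limma). The fall also missed the threshold without old 1, young 2 or young 3 (adjusted p = 0.079, 0.0763 and 0.0607). Cacna2d2, another gabapentin-binding subunit, had 27.8, 27.8 and 23.5 CPM in old and 23.7, 26.8 and 27.7 CPM in young libraries (0.02 ± 0.11), and passed as higher with library totals alone (0.30, adjusted p = 0.0292, edgeR). Cacna2d4, known from photoreceptors, was below 1 CPM in each library and did not pass (-0.20 ± 0.41). By FPKM the share of Cacna2d3 in its family was 38.8% ± 2.03 in old and 26.7% ± 7.86 in young libraries, with 35.7% in young 1 against 21.6% and 22.7% in young 2 and 3.

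The start regions of Cacna2d3 and Cacna2d1 are shown because the genes gave opposite directions with TMM. Both windows were rich in G and C, at 81.3% for Cacna2d3 (chr14:29721815-29722114, minus strand) and 80.0% for Cacna2d1 (chr5:15934441-15934740, plus strand), with 41 and 42 CpG sites. Capitals mark the GC box GGGCGG on either strand, with 6 matches in Cacna2d3 and 7 in Cacna2d1, and neighbouring matches in a run can share bases.
Cacna2d3: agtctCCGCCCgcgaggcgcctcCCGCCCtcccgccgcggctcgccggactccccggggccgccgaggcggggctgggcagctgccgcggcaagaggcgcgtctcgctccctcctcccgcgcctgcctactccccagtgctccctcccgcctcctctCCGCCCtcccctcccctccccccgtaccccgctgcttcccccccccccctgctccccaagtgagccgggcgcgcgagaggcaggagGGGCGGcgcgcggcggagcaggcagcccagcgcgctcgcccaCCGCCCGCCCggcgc
Cacna2d1: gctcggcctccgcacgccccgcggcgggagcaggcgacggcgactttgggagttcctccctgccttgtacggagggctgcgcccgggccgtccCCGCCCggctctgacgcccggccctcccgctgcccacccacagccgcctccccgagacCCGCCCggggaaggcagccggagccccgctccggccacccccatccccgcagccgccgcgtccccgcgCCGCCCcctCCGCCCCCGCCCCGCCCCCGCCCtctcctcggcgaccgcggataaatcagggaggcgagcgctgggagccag

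RefSeq start windows of this kind were on hand for 28 of the 38 genes, 37 windows in all. Each was searched on both strands for 5 motifs. The GC box GGGCGG was in 14 of the 37 windows and in 35.7% of 32851 windows of all genes, the E box CAGGTG in 7 and in 20.2%, and the TATA box TATAAA in 1, a start of Scn2a, and in 13.6%. The cAMP response element TGACGTCA and TTCAGCACC, part of the site of the neuronal gene repressor REST, were in none of the 37, and in 1.79% and 0.371% of all windows. The median G and C content was 59.3% in the channel windows and 52.7% over all. These matches describe letters in the windows and do not show binding.

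With Cacnb2 left out by the choice of genes, all 3 remaining beta subunit genes of calcium channels rose, where 26.9% of all genes were higher. These subunits bring the pore to the membrane. Cacnb3 had 69.5, 66.2 and 58.6 CPM in old and 49.6, 45.8 and 44.0 CPM in young libraries (log2 fold change 0.48 ± 0.09, adjusted p = 0.00159, edgeR). Cacnb4 had 54.9, 59.2 and 64.3 CPM in old and 47.9, 38.9 and 30.9 CPM in young libraries (0.60 ± 0.14, adjusted p = 0.0053, edgeR). Cacnb1, the form also used in skeletal muscle, had 20.2, 21.1 and 24.9 CPM in old and 13.9, 13.1 and 14.7 CPM in young libraries (0.67 ± 0.12, adjusted p = 0.000926, edgeR). No group overlapped for any of the 3, and each passed with every library left out in turn. Their shares of the family FPKM hardly moved, with Cacnb3 at 52.7% ± 4.00 in old and 53.9% ± 0.649 in young libraries. Cacnb1 shares 1032 bases with the ribosomal protein gene Rpl19 on the opposite strand, which had a mean of 5692.2 counts and fell (-0.84), and its value is uncertain to that extent.

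Of 5 gamma genes tested, 2 rose and none fell, where 26.9% of all genes were higher and 27.3% lower. No gamma gene fell at an unadjusted p under 0.05 in edgeR and DESeq2 either. Cacng7, a TARP with the most RNA of the family, had 72.4, 58.6 and 90.8 CPM in old and 72.8, 58.8 and 55.0 CPM in young libraries. Those groups overlapped, and the log2 fold change of 0.25 ± 0.15 did not pass (adjusted p = 0.195, edgeR). It passed as higher with library totals alone (0.52, adjusted p = 0.0268, edgeR) and on log2(FPKM + 1) (0.49, adjusted p = 0.0452, limma). Cacng4, also a TARP, had 19.4, 14.8 and 16.3 CPM in old and 11.4, 12.2 and 14.0 CPM in young libraries (0.43 ± 0.14, adjusted p = 0.0228, edgeR). It missed the threshold without old 1, young 1 or young 2 (adjusted p = 0.102, 0.0649 and 0.0828). The TARP gene Cacng8 had the largest fold change of all channel genes at a low level, with 46, 65 and 23 counts in old and 23, 14 and 16 counts in young libraries, or 1.58, 2.18 and 0.796 CPM against 0.644, 0.393 and 0.487 CPM. Old 3 was far below the other old libraries, and the value of 1.57 ± 0.42 (adjusted p = 0.00987, edgeR) was 1.21 without old 2 (adjusted p = 0.0517) and was 0.37 on log2(FPKM + 1), short of the threshold (adjusted p = 0.345, limma).

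Cacng2, the gene for stargazin and the founding TARP, had 6.80, 8.42 and 6.85 CPM in old and 8.18, 5.84 and 5.85 CPM in young libraries and did not pass (0.15 ± 0.18). Cacng5 had 6.25, 6.21 and 5.43 CPM in old and 7.62, 5.84 and 5.60 CPM in young libraries and did not pass (-0.09 ± 0.17). For both, young 1 was the highest or next to highest library. Cacng1, the true calcium channel gamma subunit of skeletal muscle, had 0, 1 and 0 counts in old and 2, 6 and 4 in young libraries. Cacng3 and Cacng6 had at most 2 counts in any library, and these 3 were not tested.

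Several channel genes sit in clusters. On chromosome 2, Scn3a, Scn2a, Scn1a, Scn9a and Scn7a lie in this order, and of these Scn2a and Scn1a rose while the other members did not pass. On chromosome 7 Cacng7, Cacng8 and Cacng6 follow each other at 25.8 and 7.32 kb, with only Cacng8 past the threshold. Whether neighbours differed from each other was not tested. Of the 17 channel genes that passed, 9 share bases with another gene of the count table. Counts of Scn1a, Scn2a, Scn3a, Scn9a, Scn2b, Cacna2d3, Cacnb4, Cacng2 and Cacng7 were partly not whole. How the authors' counting treated reads shared between genes is not given.

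Counts and FPKM gave different pictures for a few genes. Dividing counts by FPKM and library total gives an implied transcript length. Over 13739 genes with an FPKM of at least 1 in every library, the implied length in old divided by that in young had a median of 0.99, and its 5th and 95th percentiles were 0.86 and 1.13. For Cacna2d1 the implied length was 3.47, 3.72 and 3.41 kb in old and 4.88, 4.63 and 4.83 kb in young libraries, a ratio of 0.74. Cacna1c had 4.21 ± 0.214 kb in old and 5.20 ± 0.378 kb in young libraries (ratio 0.809; SD, n = 3 each). For both genes the groups did not overlap, and the ratios lay outside that range of all genes. Scn9a, at 1.79 ± 0.319 kb in old and 1.37 ± 0.265 kb in young libraries, overlapped, though its ratio of 1.31 also lay outside that range. Scn1a had 6.53 ± 0.194 kb in old and 7.5 ± 0.101 kb in young libraries (ratio 0.871). Cacng4 (ratio 0.929), Cacna2d3 (ratio 0.948) and, by little, Scn4b (ratio 0.996) were also shorter in old without overlap, within that range of all genes. Cacnb3 had a ratio of 0.999. How reads were shared among transcripts before FPKM were made is not given, and its part in these lengths was not tested.

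**Figure D5:**
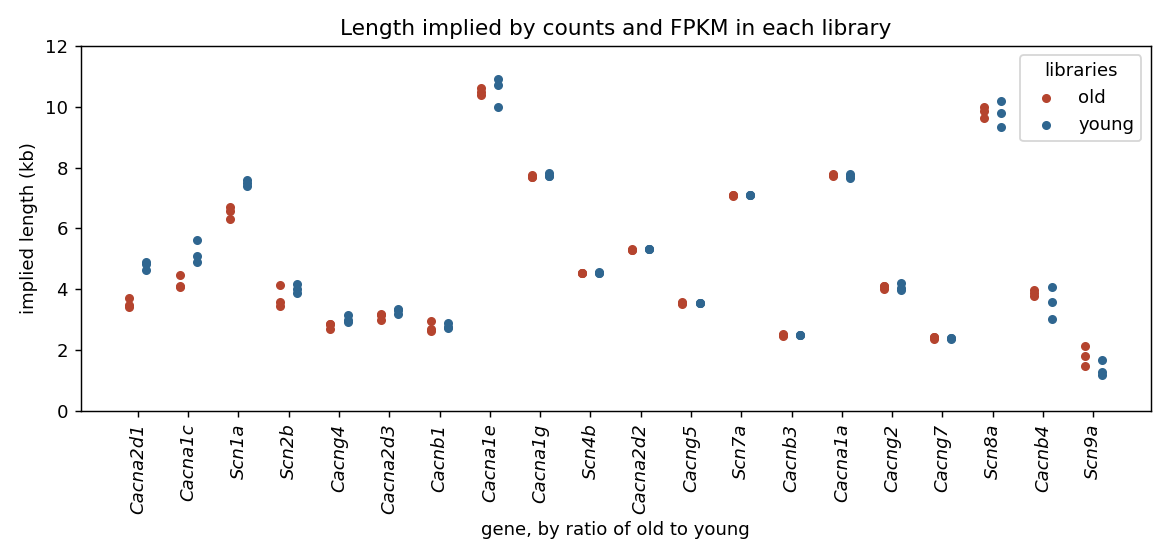
Transcript length in kb implied by counts and FPKM in each library for channel genes with an FPKM of at least 1 in every library, with old to the left of young and genes ordered by the ratio of old to young. Cacna2d1, Cacna1c, Scn1a, Cacng4, Cacna2d3 and, by little, Scn4b (ratio 0.996) are shorter in old without overlap. Cacnb3 (ratio 0.999) lies at the same height in both groups.

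Partners of the channels were taken from lists chosen with earlier results of these data known. Of 14 genes that anchor or cluster sodium channels at nodes and initial segments, 6 rose and 1 fell (median log2 fold change 0.14), where 26.9% of all genes were higher and 27.3% lower. With library totals alone 8 were higher, where 41.0% of all genes were. Tnr (0.79 ± 0.17), the spectrin gene Sptbn4 (0.76 ± 0.13) and Bcan (0.69 ± 0.18) rose, and so did Ank3, the gene for ankyrin-G that holds sodium channels in place, with 554.8, 623.7 and 674.7 CPM in old and 412.0, 386.1 and 377.0 CPM in young libraries (0.66 ± 0.09, adjusted p = 0.000238, edgeR). Hapln2, a matrix link protein gene of nodes in the central nervous system, was the one that fell. It had 0.412, 0.268 and 0.104 CPM in old and 6.05, 1.32 and 0.822 CPM in young libraries, so that young 1 held most of its counts. Nfasc, Nrcam, Cntn1 and Cntnap1 are cell adhesion genes of the node and the segments beside it. With TMM their log2 fold changes were 0.17, -0.04, 0.10 and 0.00, and none passed. On log2(FPKM + 1) and log2(FPKM + 0.1), however, Nfasc and Cntn1 were called higher in old libraries. The same held for both genes when TMM used coding genes only, or when library totals were the scaling. Nfasc was also called higher without young 1, and Nrcam on log2(FPKM + 0.1). Cntnap1 passed in none of the settings. Of 4 intracellular FGF genes, whose products bind sodium channel tails, only Fgf12 rose with TMM, where 26.9% of all genes were higher. Fgf12 had 64.3, 66.6 and 76.6 CPM in old and 57.3, 43.6 and 37.4 CPM in young libraries (0.58 ± 0.14). With library totals alone 2 were higher, where 41.0% of all genes were. On log2(FPKM + 1) limma called 3 higher, Fgf12, Fgf13 and Fgf14, where 38.4% of all genes were.

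Other sodium-permeable channels and their partners had 6 of 13 higher and none lower, with a median of 0.35, against 26.9% of all genes higher and 27.3% lower. The sodium leak channel gene Nalcn did not pass (-0.08 ± 0.10), while its partner genes did. Fam155a had 114.8, 114.4 and 132.5 CPM in old and 62.2, 44.9 and 42.1 CPM in young libraries (1.28 ± 0.14, adjusted p = 7.1e-05, edgeR). Unc79 (1.24 ± 0.18) and Unc80 (0.66 ± 0.14) rose as well, as did the acid-sensing channel gene Asic2 (1.33 ± 0.32), with 1.17, 1.14 and 1.04 CPM in old and 0.504, 0.393 and 0.426 CPM in young libraries. At an unadjusted p under 0.05, edgeR had 2 lower, Scnn1g and Tpcn1, and DESeq2 called Tpcn1 lower after adjustment. Leaving out old 3 or young 2 left 4 higher, since Asic3 and Tpcn2 then missed the threshold, and without young 1 there were 6 higher and 3 lower. The epithelial sodium channel genes Scnn1a, Scnn1b and Scnn1g had values of 0.26, -0.08 and -0.40 and did not pass. Of 19 calcium channel regulators tested, 6 rose and 2 fell, with a median of -0.01, where 26.9% of all genes were higher and 27.3% lower. With library totals alone 9 rose and 1 fell, where 41.0% of all genes were higher and 14.5% lower. Cabp1, Tspoap1 (0.99 ± 0.13) and Rimbp2 (0.75 ± 0.14), genes for a calcium sensor and for proteins that tie calcium channels to release sites, were among those that rose, and the calmodulin genes Calm2 (-0.61 ± 0.09) and Calm3 (-0.38 ± 0.09) fell, Calm3 being at -0.11 with library totals alone (adjusted p = 0.34).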

How the data were processed

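Trizol extraction, DNase treatment and removal of ribosomal RNA preceded sequencing, per the labels' protocols. The build was GRCm38.p6, per the submitters' processing notes; no source used here names the aligner, quantifier, annotation or strandedness. The authors deposited estimated counts per gene, unscaled, of which 20.2% are not whole, and FPKM values (scaled to length and depth). Circular RNA entries were left out. The 38 channel genes matched RefSeq of the same build by gene ID.

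Estimated counts were rounded and fitted with edgeR 4.0.16 (R 4.3.3) using filterByExpr, TMM, quasi-likelihood F tests and Benjamini-Hochberg adjustment over 20157 genes; SE is the log2 fold change over the square root of F. Alternatives used library totals alone, TMM on coding genes, DESeq2 size factors, no filter, DESeq2 1.42.0, limma 3.58.1 on log2(FPKM + 1) and log2(FPKM + 0.1), a replicate block, and leaving out each library. The script was tested on simulated data in which far fewer genes changed than passed here. That test does not bear on the choice of scaling. Implied length is counts divided by FPKM and the library total. Python 3.11.15, pandas 2.3.3 and matplotlib 3.10.9 made tables and plots.

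Values in every library are given for channel genes that passed with a change of at least 2-fold, for the 3 with the highest mean FPKM per family (Cacng2 and Cacng5 tied), and for others chosen after their values were seen. Up to 4 members with the largest changes are named per list, and others after their values were seen. The members and lists were chosen with earlier results of these data known. Some members enter the counts, medians and family sums but are not reported here by name or drawn. The sequences are RefSeq's, build GRCm38.p6.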

Additional observations from a re-analysis of the deposited data

How the results depend on the processing

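The count of channel genes higher in old libraries was 15 with TMM, DESeq2 size factors, no filter, DESeq2 and the replicate block, 19 with library totals alone, 17 with TMM on coding genes, 16 with FPKM, and 12 to 15 with 1 library left out; the same 15 genes passed in each of these settings except FPKM and left-out libraries. The count of lower genes was 2, but 1 with library totals alone, 1 with TMM on coding genes, 0 on log2(FPKM + 1), 0 on log2(FPKM + 0.1), and 1 to 2 with 1 library left out; Cacna2d1 was lost in the first pair of settings, and Scn2b did not pass with FPKM. At an unadjusted p under 0.05 limma had 1 lower, Scn2b, on log2(FPKM + 1) and 0 on log2(FPKM + 0.1), while edgeR and DESeq2 called 2 after adjustment.

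Whether the replicate numbers pair the libraries is not in the labels. Deviations of same-numbered libraries correlated at -0.0817, 0.0262 and -0.0574, and those of differently numbered libraries at -0.0576 to 0.12. With 3 libraries per group these values cannot exclude a pairing. With a replicate block the counts were 15 and 2.

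Directions changed for genes that did not pass, and for Cacna2d1. Its log2 fold change was 0.39 and 0.41 on log2(FPKM + 1) and log2(FPKM + 0.1). With library totals alone, TMM on coding genes, log2(FPKM + 1) and log2(FPKM + 0.1) in that order, Cacna1e was at 0.17, 0.03, 0.14 and 0.17, Cacng5 at 0.17, 0.04, 0.12 and 0.19, and Scn4b at 0.25, 0.12, 0.29 and 0.30. Scn4b was at 0.02 with the replicate block. Cacna2d4 was at 0.06 with library totals alone and at 0.07 and 0.29 with FPKM. Without the filter Cacna1s was at -0.02 and Cacna2d2 at -0.01, and with DESeq2 Cacna1s was at -0.01. With 1 library left out the ranges were -0.03 to 0.50 for Cacna1h, -0.62 to 0.59 for Cacna1s, -0.07 to 0.09 for Cacna2d2, -0.53 to 0.05 for Cacna2d4, -0.20 to 0.03 for Cacng5, -0.06 to 0.31 for Scn3b, -0.17 to 0.19 for Scn4b and -0.03 to 0.26 for Scn9a. The cause was not tested.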
